A study of Mus musculus with 2 samples.

Results

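Proteasome subunits and activators were examined in total RNA of gastrocnemius, the large calf muscle, from 2 female B6CASTF1/J mice aged 8 to 10 months. The members are the genes named Psma, Psmb, Psmc, Psmd, Psme or Psmf followed by a digit that have at least 1 protein-coding transcript. There were 46 of them among 55536 genes, and 4 pseudogenes of the same names were left out. By role, 7 encode the alpha ring of the core, 4 its non-catalytic beta subunits, 3 its constitutive and 3 its immune catalytic beta subunits, 6 the ATPases of the base, 3 other base subunits, 8 the lid, 3 chaperones of base assembly, 5 activators and 1 an inhibitor or adaptor (Psmf1). A testis-type alpha gene (Psma8) and a thymus-type catalytic gene (Psmb11) also belong. Psmc3ip met the name rule but encodes a cofactor of meiotic recombination, not a proteasome subunit, and is given by its level only.

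Both animals belong to a single group of hybrids between C57BL/6J and CAST/EiJ mice, for which the labels name no treatment, with 1 library per animal made from 300 ng of RNA. Animal 1 of the labels is replicate 1 and animal 3 is replicate 2. A donor identifier in the labels is common to both, but the animal numbers differ, so they were counted as 2 animals. With 1 group there is no contrast to test and no p-value, so values are given per animal and as mean ± SD (n = 2).

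The proteasome breaks down proteins that carry ubiquitin chains. Its core is a stack of alpha and beta rings in which 3 beta subunits cut the peptide chain. The regulatory particle at its ends has a base, whose ATPases unfold the substrate, and a lid, which removes the ubiquitin. In cells exposed to interferon, and in many leukocytes, immune catalytic subunits take the places of the constitutive ones, and other caps such as the Psme1 and Psme2 ring or Psme4 can replace the regulatory particle. In skeletal muscle the proteasome is known as a main route of protein breakdown during atrophy.

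The libraries held 42714567 and 43421652 expected counts, the estimated reads assigned to genes. The 6 markers of muscle fibres summed to 95502 and 84176 TPM (transcript abundance corrected for length and scaled to a fixed total over all RNAs of a library), and those of leukocytes to 10.1 and 9.61 TPM over 10 genes, of which 2 were detected (1 TPM or more in both animals). Schwann cell markers differed between the animals, summing to 54.5 TPM in replicate 1 against 12.1 in replicate 2, and all 5 were more than 2-fold lower in replicate 2. Nuclear protein-coding genes took 48.2% (replicate 1) and 43.3% (replicate 2) of that fixed total. The median gene with at least 50 counts had a TPM ratio of 0.889, replicate 2 over replicate 1, so a slightly lower TPM in replicate 2 is common to most genes. In bulk tissue, fewer cells of a type and less RNA per cell cannot be told apart.

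Of the 46 members, 41 were detected, beside 43.9% of the 22015 nuclear protein-coding genes. The 41 lay high among detected coding genes, 36 of them above the median of 8.16 TPM. All members together took 0.472 ± 0.0108% of nuclear protein-coding TPM. The 5 below the threshold were Psma8, Psmb9, Psmb11, Psme2b and Psmc3ip.

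Promoter sequences are shown for the genes on which the results turn, namely a constitutive catalytic subunit beside its immune counterpart at the beta 5 and beta 1 positions, and the activators Psme4 and Psme1. They come from RefSeq on GRCm38.p6, run from 250 bases before to 50 after the RefSeq start, and are written 5′ to 3′ on the gene's strand. Capitals mark matches, on either strand, to TGACNNNGC, the letters of the antioxidant response element bound by Nfe2l1 and Nfe2l2, or to the core of the interferon-stimulated response element, read as GAAA and GAAA with 2 bases of any kind between them.
Psmb5 (chr14:54617946-54618245, minus strand): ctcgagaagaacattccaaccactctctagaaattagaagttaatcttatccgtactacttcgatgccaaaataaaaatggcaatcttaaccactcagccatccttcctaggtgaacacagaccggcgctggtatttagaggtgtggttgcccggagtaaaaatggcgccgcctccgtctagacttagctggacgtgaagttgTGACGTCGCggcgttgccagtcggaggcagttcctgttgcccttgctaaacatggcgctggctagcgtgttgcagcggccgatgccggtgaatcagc
Psmb8 (chr17:34197945-34198244, plus strand): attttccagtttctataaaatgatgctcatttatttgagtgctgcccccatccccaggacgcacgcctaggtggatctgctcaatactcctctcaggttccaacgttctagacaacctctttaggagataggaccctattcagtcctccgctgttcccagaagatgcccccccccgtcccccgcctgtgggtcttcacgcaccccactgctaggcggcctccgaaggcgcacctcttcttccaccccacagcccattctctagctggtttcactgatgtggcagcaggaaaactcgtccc
Psmb6 (chr11:70525107-70525406, plus strand): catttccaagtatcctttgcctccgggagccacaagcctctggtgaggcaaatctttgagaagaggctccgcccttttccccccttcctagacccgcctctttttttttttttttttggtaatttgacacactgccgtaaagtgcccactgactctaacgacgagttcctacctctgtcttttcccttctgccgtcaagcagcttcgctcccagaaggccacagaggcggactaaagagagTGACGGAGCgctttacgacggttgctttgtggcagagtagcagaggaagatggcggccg
Psmb9 (chr17:34187281-34187580, minus strand): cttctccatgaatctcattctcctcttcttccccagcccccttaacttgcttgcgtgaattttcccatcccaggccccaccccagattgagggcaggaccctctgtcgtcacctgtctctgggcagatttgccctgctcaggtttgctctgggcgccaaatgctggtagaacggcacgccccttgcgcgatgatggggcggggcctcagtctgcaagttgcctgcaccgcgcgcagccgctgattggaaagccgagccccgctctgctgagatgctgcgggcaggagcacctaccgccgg
Psme4 (chr11:30771525-30771824, plus strand): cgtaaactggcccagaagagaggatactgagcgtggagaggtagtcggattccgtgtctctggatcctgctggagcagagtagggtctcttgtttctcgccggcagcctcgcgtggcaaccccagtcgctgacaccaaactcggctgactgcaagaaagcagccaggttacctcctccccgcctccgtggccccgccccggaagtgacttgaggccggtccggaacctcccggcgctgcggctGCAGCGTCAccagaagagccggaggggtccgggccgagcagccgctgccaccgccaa
Psme1 (chr14:55578244-55578543, plus strand): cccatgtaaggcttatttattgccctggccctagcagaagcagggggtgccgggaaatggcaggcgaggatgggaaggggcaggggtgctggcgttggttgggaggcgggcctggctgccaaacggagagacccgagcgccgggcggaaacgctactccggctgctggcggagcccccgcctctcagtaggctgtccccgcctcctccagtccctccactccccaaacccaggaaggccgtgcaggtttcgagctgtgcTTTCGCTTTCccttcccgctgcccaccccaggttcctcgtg

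The match to TGACNNNGC lies 47 bases before the start in Psmb5, 9 in Psmb6 and 7 in Psme4, and the match to the interferon element 9 bases after the start in Psme1. The windows of Psmb8 and Psmb9 hold neither. Those of Psmb8, Psmb9 and Psme1 lie wholly inside the spans that GENCODE gives these genes, so they do not cover the sequence before the GENCODE start. Promoters were found for 39 members (42 windows), and not for Psma8, Psmb1, Psmb2, Psmb7, Psmc3, Psmd3 and Psmd7. TGACNNNGC occurred in 6 of the 42 windows (14.3%) and in 12.4% of all 32851 promoters of that length, so the members' share was near that of all promoters. The interferon element occurred in 4 windows (9.52%, against 3.44%), those of Psmb3, Psmd4, Psmd9 and Psme1. CCGGAAG, the letters of an ETS site, occurred in 14 windows (33.3%, against 8.86%), which belong to 13 members. These were the base and lid genes Psmc1, Psmc2, Psmc6, Psmd2, Psmd4, Psmd6, Psmd11, Psmd12 and Psmd13, and also Psma6, Psme3, Psme4 and Psmc3ip. The NRF1 site here is that of nuclear respiratory factor 1, not of Nfe2l1. It reads GCGCA and GCGC with 1 base of any kind between them, and occurred in 6 windows (14.3%, against 4.60%). AAGATGGC, a YY1 site, occurred in 3 (7.14%, against 2.75%), and GGGCGG, the GC box, in 23 (54.8%, against 35.7%). The CCAAT box was found in 35.7% against 37.4%, and GGGANTTCC, an NF-kappa-B site, in 0 against 1.68%. All were searched on both strands, some can overlap each other, and a match of letters is a description, not evidence of binding.

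All 14 constitutive core genes were detected, with a median of 71.4 TPM in replicate 1 and 62.5 in replicate 2 (67.0 ± 6.26). The most abundant was Psmb7, the trypsin-like catalytic subunit, at 148 and 134 TPM. The least abundant was Psma2, an alpha ring subunit, at 22.3 and 20.6 TPM. Each subunit has the same copy number in the particle, whereas the highest mean level was 6.58 times the lowest. By a second deposited quantification, the highest was 10.6 times the lowest, with Psma3 at the top (145 and 128 TPM) and Psma2 again at the bottom (13.2 and 12.4 TPM).

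Psmb6, the caspase-like catalytic subunit, followed Psmb7 at 126 and 116 TPM. Psma3, which lies in the alpha ring that gates the core, came next at 105 and 99.9 TPM. Below it were Psmb4, a structural beta subunit, at 88.4 and 85.2 TPM, and Psmb5, the chymotrypsin-like catalytic subunit, at 82.1 and 78.1 TPM. By the first quantification with all transcripts counted, the ranges of the 2 animals did not overlap between any neighbours in this upper part. By the second, Psmb4 (90.7 and 104.8 TPM) overlapped Psmb6 (98.2 and 87.3). Psmb3 (69.3 and 64.1) was there above Psmb5 (64.9 and 60.0) in each animal. With protein-coding transcripts alone, Psma3 (72.85 and 69.78 TPM) and Psmb4 (58.05 and 58.34) were below Psmb5 by the first quantification. The levels that follow are again those of the first, with all transcripts counted. Psmb3 (77.0 and 71.8 TPM), also a structural beta subunit, overlapped the alpha gene Psma6 (74.9 and 64.7), and Psma6 overlapped Psma7 (67.9 and 60.4). Psma4 (48.2 and 47.5 TPM) and Psmb1 (48.7 and 43.4) changed places between the animals, the only pair among 91 to do so. Psma1 was at 42.9 and 40.5 TPM, Psmb2 at 35.7 and 35.5, and Psma5 at 24.8 and 26.0. The order of core genes was thus nearly the same in both animals. The median of the 7 alpha genes was 0.598 ± 0.0146 of that of the 7 constitutive beta genes, and the 3 constitutive catalytic genes had a median 2.01 ± 0.000480 times that of the 4 non-catalytic beta genes (1.67 ± 0.0208 by the second quantification).

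**Figure D1:**
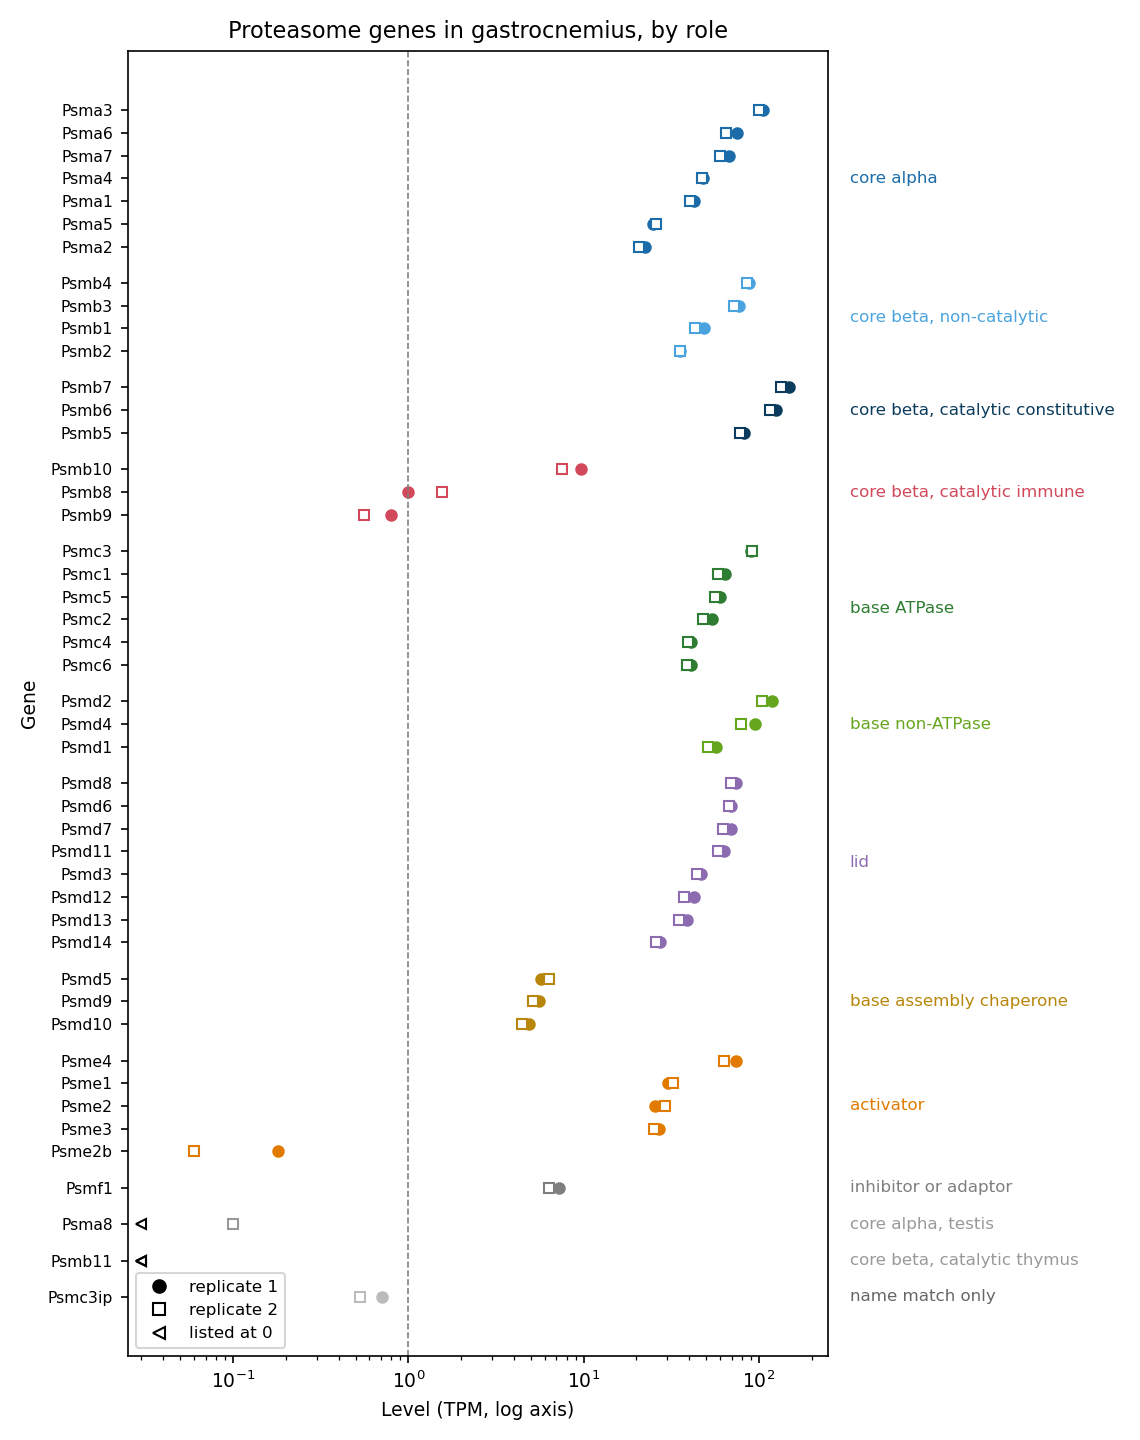
Level of each of the 46 members in TPM on a log axis, grouped by role, with filled circles for replicate 1, open squares for replicate 2, triangles at the left edge for values listed at 0 and a dashed line at 1 TPM. Core, base and lid genes lie between 20.6 and 148 TPM, the 3 base assembly chaperones between 4.45 and 6.35, and the immune catalytic genes between 0.56 and 9.71.

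Among the 9 base genes, Psmd2, a large scaffold that binds ubiquitin-like proteins, was the highest at 119 and 104 TPM. The ATPase Psmc3 followed at 90.7 and 91.3 TPM, and overlapped Psmd4, a receptor for ubiquitin chains, at 95.4 and 78.8. Psmd1, the other large scaffold, was at 56.7 and 51.4 TPM. The 6 ATPase genes had a median of 54.7 ± 3.50 TPM. Below Psmc3 they were Psmc1 (63.8 and 58.7 TPM), Psmc5 (60.5 and 56.2), Psmc2 (53.9 and 48.2), Psmc4 (41.0 and 39.7) and Psmc6 (41.3 and 39.2). The neighbours from Psmc1 to Psmc2, with Psmd1 between Psmc5 and Psmc2, overlapped, as did Psmc4 with Psmc6. Over the base, 34 of 36 pairs kept their order in both animals. These values count all transcripts. With protein-coding transcripts alone, Psmc6 (25.3 and 25.5 TPM) was below Psmc4 (41.0 and 37.6).

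The 8 lid genes spanned 25.9 to 74.5 TPM, a narrower range than that of the core. Psmd14, the metalloprotease that removes ubiquitin, was the lowest at 27.4 and 25.9 TPM with all transcripts counted. With protein-coding transcripts alone, Psmd13 was below it, at 19.8 and 19.5 TPM against 22.7 and 21.5. On that basis the second quantification gave 14.6 and 13.1 TPM for Psmd13 and 18.4 and 17.1 for Psmd14. The lid values that follow count all transcripts. The highest were Psmd8 (74.5 and 69.4 TPM), Psmd6 (69.6 and 68.0) and Psmd7 (69.0 and 62.4), the inactive partner of Psmd14, and these neighbours overlapped. Psmd11, a lid scaffold, was at 63.3 and 58.5 TPM and overlapped Psmd7. Psmd3 was at 46.7 and 44.4 TPM, Psmd12 at 42.8 and 37.5 and Psmd13 at 38.9 and 35.2. All 28 pairs of lid genes had the same order in both animals. The lid median was 0.796 ± 0.0369 of the core median, and that of the base ATPases 0.818 ± 0.0242, so core, base and lid medians lay within a narrow band.

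Psmd5, Psmd9 and Psmd10, chaperones that guide the ATPases into the base and leave before the particle is complete, stood well below the subunits. Psmd5 was at 5.73 and 6.35 TPM, Psmd9 at 5.60 and 5.18, and Psmd10, the sole member on the X chromosome, at 4.90 and 4.45. The base ATPase median was 10.1 ± 0.0909 times the chaperone median (9.46 ± 0.320 by the second quantification). Factors of core assembly had a similar split. Pomp, the maturation factor consumed with each new core, was at 60.9 and 52.7 TPM, whereas the other 4 of that list lay lower, down to Psmg3 at 3.80 and 3.46 TPM.

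Immune catalytic genes were far lower than their constitutive counterparts in this muscle. Psmb10 was still near the median of detected coding genes, with 51.6% of them below it, against 2.15% below Psmb8. Psmb10, the immune counterpart of Psmb7 (chr8:105935735-105938444, minus strand), was at 9.71 and 7.52 TPM from 148 and 133 expected counts. Psmb8, the counterpart of Psmb5 (chr17:34197721-34201454, plus strand), was at 1.00 and 1.56 TPM from 28 and 47 counts. Psmb9, the counterpart of Psmb6 (chr17:34181987-34187764, minus strand), was at 0.80 and 0.56 TPM from 17 and 21 counts. Psmb10 stood above the other 2 in both animals. Deposited credibility bounds of Psmb8 (0.801 to 1.93 TPM in replicate 1, 1.22 to 2.36 in replicate 2) overlapped those of Psmb9 (0.631 to 1.82 and 0.560 to 1.41), so the order of these 2 was not resolved at this depth.

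The constitutive partners were far higher at each position. Psmb5 (chr14:54614119-54618022, minus strand) was 82.1 and 50.1 times Psmb8. Psmb6 (chr11:70525367-70527858, plus strand) was 158 and 206 times Psmb9. Psmb7 (chr2:38588036-38644087, minus strand) was 15.3 and 17.9 times Psmb10. Summed over the 3 positions, constitutive genes had 30.98 and 34.02 times the TPM of immune genes (32.5 ± 2.15), and immune genes took 2.99 ± 0.192% of the 6. The second quantification gave 27.7 ± 0.337.

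That ratio depended on which transcripts were counted. Psmb10 had 1.66 and 1.31 TPM in its protein-coding transcript Psmb10-201, which was 17.1% and 17.4% of the gene. The processed transcript Psmb10-203 had 4.05 and 2.73 TPM and the retained-intron transcript Psmb10-205 had 2.59 and 2.61. In Psmb8 the retained-intron transcript Psmb8-205 had 0.66 and 0.78 TPM, and protein-coding transcripts 0.34 and 0.79. With protein-coding transcripts alone, constitutive genes had 133 ± 9.42 times the TPM of immune genes, and the immune share was 0.750 ± 0.0528%. The second quantification gave 102 ± 1.81 times on that basis. By the first quantification, Psmb10 and Psmb8 were the only 2 of the 41 detected members with under 50% of their TPM in protein-coding transcripts, beside 7.2% of all detected coding genes with several transcripts, and both rest on few reads. By the second, Psmb8 was at 69.0% and Psmb10 at 16.7%, and Psmc6 (33.2%), Psmb4 (42.1%), Psmd13 (46.8%) and Psme1 (47.6%) were under 50% as well. No share of all genes under 50% by the second quantification is given here.

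**Figure D2:**
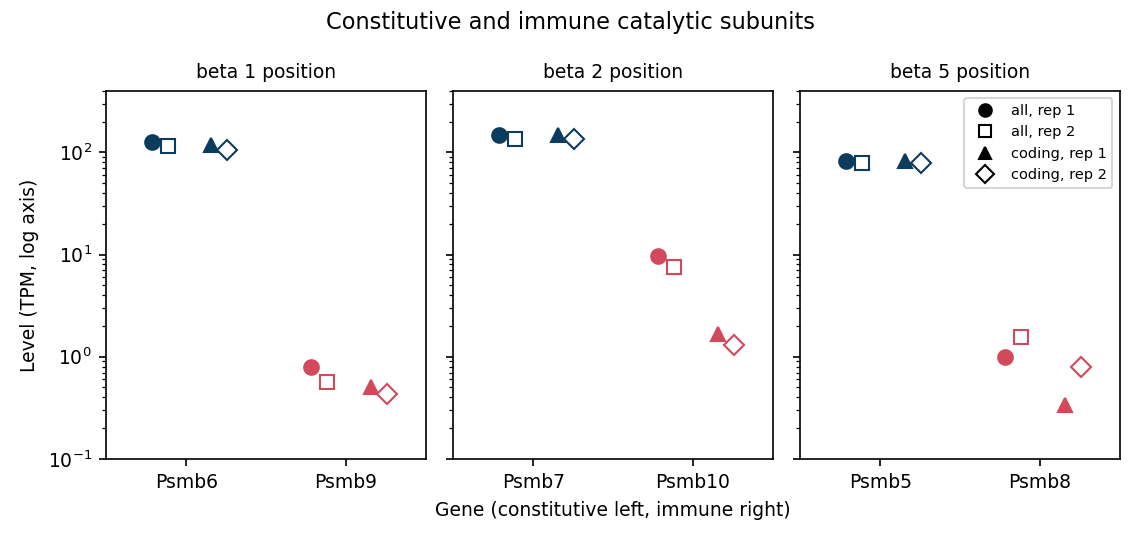
TPM on a log axis of each constitutive catalytic gene (left of each panel, blue) and its immune counterpart (right, red), for all transcripts (circles and squares) and for protein-coding transcripts only (triangles and diamonds), with filled symbols for replicate 1 and open ones for replicate 2. The red points drop when only coding transcripts are counted, most for Psmb10, from 9.71 to 1.66 TPM in replicate 1, while the blue points hardly move.

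Genes of interferon response and peptide loading ranged from low to moderate. Psmb8 and Psmb9 lie 9956 bases apart on chromosome 17, and Psmb9 overlaps Tap1, a subunit of the transporter that carries peptides to MHC class I, by 212 bases on the opposite strand. Tap1 was at 0.39 and 0.53 TPM. Of 8 such genes, 6 were detected, and B2m, Tapbp and Erap1 lay above the median of detected coding genes. The detected ones ran from B2m, the light chain of MHC class I, at 23.7 and 22.4 TPM to the transcription factor Irf1 at 2.41 and 1.34. The lowest was Nlrc5, an activator of MHC class I genes, at 0.38 and 0.35 TPM. Of the 10 leukocyte markers, the detected ones were Lyz2 at 6.19 and 5.93 TPM and Csf1r at 1.92 and 1.87. Both were above Psmb8 and Psmb9 but below Psmb10 (9.71 and 7.52 TPM). The other 8, the general leukocyte marker Ptprc among them at 0.45 and 0.22 TPM, had mean levels of 0.02 to 0.50 TPM. What part of the immune subunits' RNA comes from leukocytes was not tested.

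The tissue-restricted genes were at the limit of detection. Psmb11, the thymus-type catalytic subunit, lies 3410 bases from Psmb5 on chromosome 14 and had 0 counts in both animals, which allows up to 0.0702 and 0.0691 CPM (3 counts, counting error only). Psma8, the testis-type alpha subunit, had 0 and 3 counts. Psmc3ip had 18 and 16 counts.

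Psme4, a large single-chain activator that caps the core without ATP, was the highest activator at 73.9 and 63.0 TPM, 1.04 and 1.01 times the core median. It lies at chr11:30771726-30880361 on the plus strand. Its 12883 and 12553 counts were 13.6 ± 0.691% of all counts of the members, a share that is not corrected for its long transcript, and 96.9% and 96.6% of its TPM was in Psme4-201. Psme1 and Psme2, which together form the interferon-inducible ring, were at 30.3 and 32.5 TPM and at 25.5 and 29.2. Psme3, which forms a ring of its own in the nucleus, was at 27.0 and 25.4 TPM. Psme4 was thus 2.61 ± 0.181 times Psme3 and 2.19 ± 0.357 times Psme1 (1.93 and 1.78 times Psme3, and 1.57 and 1.37 times Psme1, by the second quantification).

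With all transcripts counted, Psme1 and Psme2, unlike the immune catalytic genes, were within the range of the constitutive core. With protein-coding transcripts alone, Psme2 had 15.2 and 15.5 TPM, below the lowest core gene, Psma2, at 22.3 and 20.6. On that basis the second quantification gave Psme2 14.4 and 14.5 TPM, against 13.2 and 12.4 for Psma2. Psme1 and Psme2 lie 5911 bases apart on chromosome 14, on opposite strands. Psme1 was 1.15 ± 0.0514 times Psme2, and their deposited credibility bounds overlapped in both animals. The second quantification gave 1.59 ± 0.0721. Psme2b, a near copy of Psme2, had 3.83 and 1.45 counts. Psmf1, which binds the core and was first described as its inhibitor, was at 7.21 and 6.37 TPM.

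Transcript use was the same in both animals for most members. Of the 41 detected members, all with several transcripts, 37 had the same protein-coding transcript highest in both animals, beside 82.5% of 8933 genes. For 32 it was also the highest by the second quantification, beside 66.7%. The median member had 98.2% of its TPM in protein-coding transcripts (94.3% over those genes), and 29 had at least 90%, a count given without its share over those genes. The 4 without a shared coding transcript were Psmb8, Psmb10, Psmd5 and Psmd13. Psmd5-201 was highest in replicate 1 (51.0% of the gene) and Psmd5-202 in replicate 2 (48.7%), both coding. In the lid gene Psmd13 the highest was Psmd13-211, annotated as a target of nonsense-mediated decay, at 18.8 and 15.6 TPM, above the coding Psmd13-208 at 14.2 and 14.5.

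Some core and activator genes gave different transcripts by the 2 quantifications. Psma3 was mainly Psma3-204 by the first (62.9 and 54.3 TPM), which was listed at 0 by the second, where Psma3-208 (68.4 and 59.6) and the decay-annotated Psma3-201 (59.6 and 44.2) led. Psmb1 was mainly Psmb1-201 by the first (42.0 and 34.9 TPM) and Psmb1-204 by the second (40.5 and 35.2), both coding. Psme1-209, annotated for decay, had 2.77 and 9.18 TPM by the first and 18.3 and 20.3 by the second. The gene totals differed less: 40 of the 41 detected members lay within 1.5-fold between the quantifications, the exception being Psma2, and 34 were lower by the second, with a median ratio of 0.869. No such shares over all genes are given here, so these counts are not read as particular to the members.

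Retained-intron transcripts took a sizeable part of some genes. Psmb4 had 34.4% (replicate 1) and 31.5% (replicate 2) of its TPM in them, Psmc1 17.2% and 18.0%, and Psmc6 21.1% and 21.3%. Psme2 had 40.3% and 46.8%. Psma3 had 18.5% and 21.7%. These shares differed by the second quantification, which gave 52.4% and 63.5% for Psmb4, 29.1% and 30.2% for Psmc1, 45.7% and 47.6% for Psmc6, 37.7% and 40.2% for Psme2, and 6.19% and 6.58% for Psma3.

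**Figure D3:**
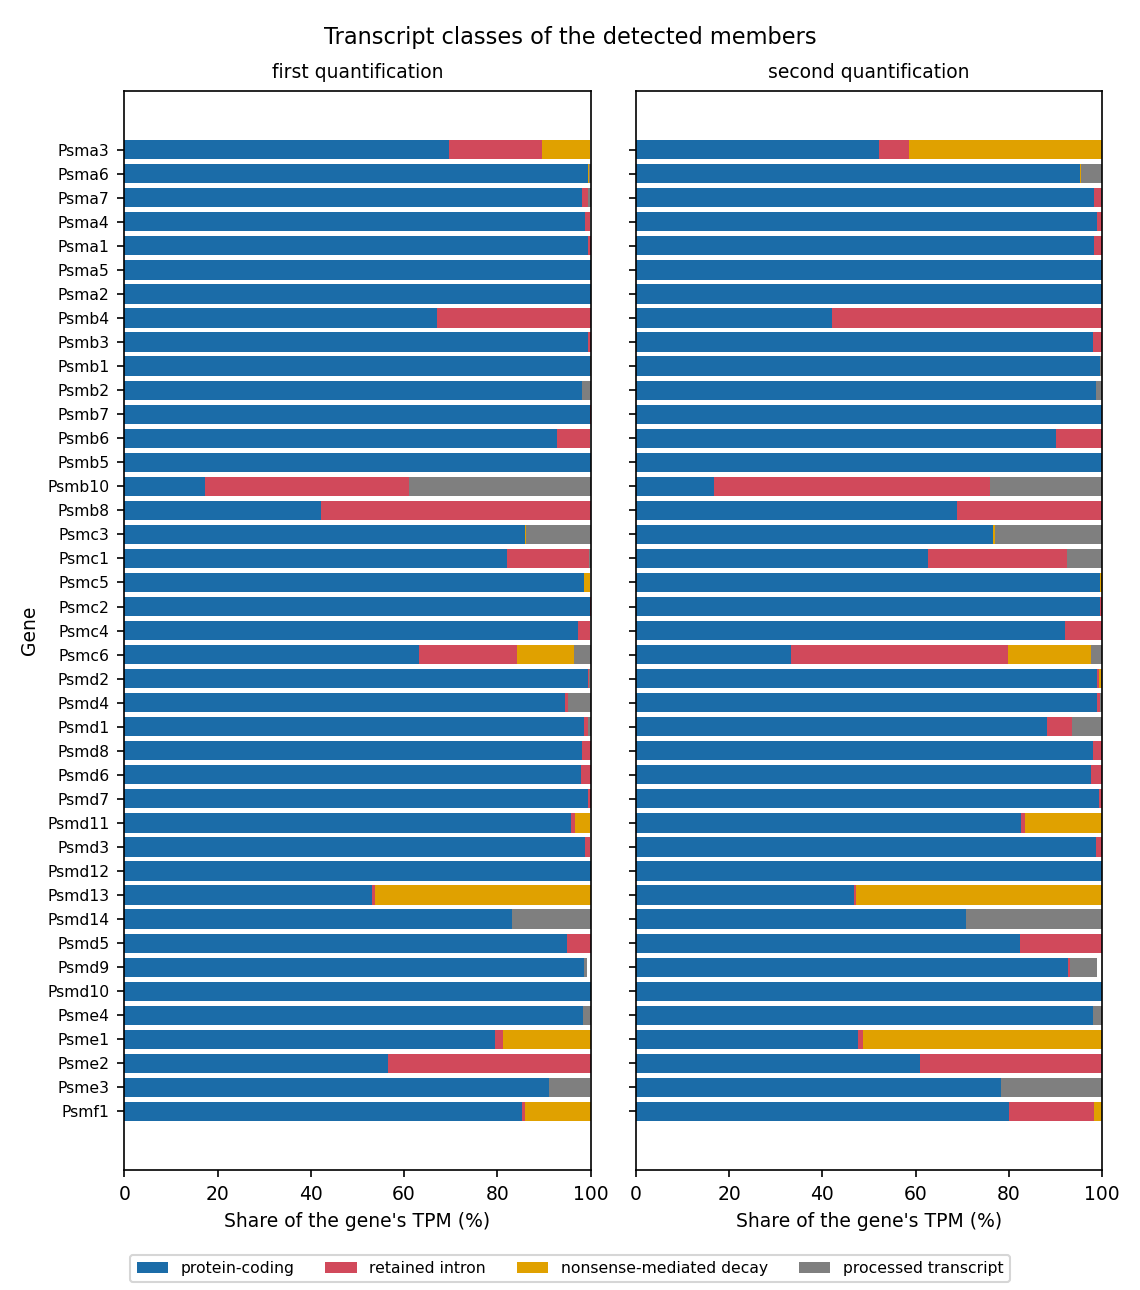
Share of each detected member's TPM in 4 annotated transcript classes, as stacked bars of the mean of both animals, for the first (left) and second (right) quantification; a gap at the right end, as in Psmd9, is another class. Most bars are nearly all protein-coding, and Psmb10 and Psmb8 are the ones under 50% on the left.

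Several members have near copies in the genome, and no share of all genes with such copies is given here. Of the 46, 24 shared no stretch of 31 bases of their highest transcript with another gene, and 6 shared at least 50%. These were Psma3 (79.0%), Psme2b (78.4%), Psmb5 (74.0%), Psme2 (70.5%), Psmb3 (66.8%) and Psma5 (64.0%) of these stretches. The closest match was a processed pseudogene for Psma3, Psmb5 and Psma5, and Psme2 and Psme2b were each other's. The closest pseudogenes had fewer counts than their parents. Gm3375, a copy of Psmb5, had 178 and 177 counts against 1814 and 1990, and Gm8394, a copy of Psma5, had 102 and 138 against 793 and 951. AC114990.1, a copy of Psmb3, had 155 and 135 counts against 1442 and 1540. None of the 40 members with at least 50 counts had a posterior SD of its count above 5% of the mean, beside 3.87% of genes at that depth. Psme2b, with fewer counts, did. Reads could still be split between such copies, and the levels of these 6 carry that uncertainty. Psma2 overlaps AW209491 on the same strand by 8943 bases, and AW209491 had 5.88 and 5.91 TPM.

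Between the animals, the members differed little. Ratios of replicate 2 over replicate 1 were taken on the log2 scale from normalised counts, for the 40 members and 11125 genes with a mean of at least 50 counts. No member passed 2-fold, beside 1.39% of all genes (0.683% higher and 0.71% lower in replicate 2). The members' log2 ratios ran from -0.17 to 0.27, with a median of 0.06 and an interquartile range of 0.0965. For all genes the median was -0.0024 and the interquartile range 0.251. Within 0.25 of 0 were 39 of the 40, beside 74.7% of all genes. The share within that range was higher at greater depth for all genes too. Among genes with at least 500 counts, none of the 34 members passed 2-fold, beside 0.54% of all genes (0.335% higher and 0.205% lower in replicate 2). All 34 were within 0.25, beside 88.2%, and 26 were above 0, beside 49.9%. The interquartile ranges were 0.0919 for these members and 0.161 for these genes.

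The largest log2 ratios towards replicate 2 were those of the chaperone Psmd5 (0.27, from 389 and 476 counts) and the activator Psme2 (0.24, from 369 and 444). The largest towards replicate 1 were those of Psmb10 (-0.17, from 148 and 133 counts) and Psmf1 (-0.16, from 409 and 371). Of the 40 members, 33 were above 0, beside 49.4% of all genes. That direction changed with the scaling. With libraries scaled to the spike-in RNAs instead, the members' median was -0.07 and that of all genes -0.12, so 9 members were above 0 and the same number, 33, above the median of all genes. In TPM, 35 of the 41 detected members were lower in replicate 2, a count given without its share over all genes and so not read as particular to the members. The median TPM ratio of the 41 was 0.930, beside 0.889 for all genes with a mean of at least 50 counts. The Schwann cell difference between these libraries, given above, goes along with this comparison. Fibroblast markers summed to 109.6 and 80.0 TPM, with log2 ratios of -0.29 to -0.25 in all 4. Endothelial markers summed to 53.5 and 44.0 TPM, with log2 ratios of -0.46 to 0.02 in 5. The part of these cell types in the members' ratios was not tested.

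**Figure D4:**
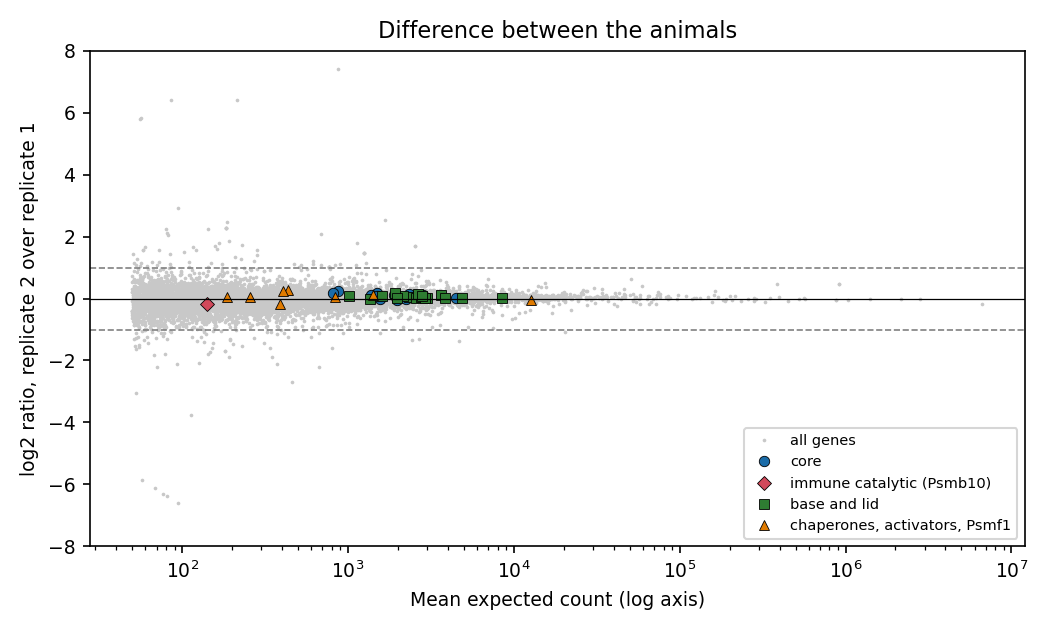
Log2 ratio of replicate 2 over replicate 1 against the mean expected count (log axis) for 11125 genes (grey) and the 40 tested members (coloured by role), with dashed lines at 2-fold. The members lie between -0.17 and 0.27, close to 0 at every depth.

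Of 8 genes tied to proteasome gene transcription, 7 were detected, beside 43.9% of nuclear protein-coding genes, and none of the 7 with enough counts passed 2-fold between the animals, beside 1.39% of all genes. Nfe2l1, the factor that raises proteasome genes when proteasome activity drops, was the highest at 178 and 198 TPM, above every member. Nfe2l3, its relative, was the lowest at 0 and 0.03 TPM. Adrm1, a base subunit and ubiquitin receptor not named by the rule, was at 55.5 and 51.3 TPM, within the range of the base members. Sem1, a small lid subunit, was at 23.7 and 22.4 TPM, below Psmd14, the lowest lid member with all transcripts counted. Of 14 listed enzymes and shuttles that bind the proteasome, 13 were found and all 13 were detected, none past 2-fold, from Ecpas, a proteasome-binding scaffold, at 147 and 123 TPM down to Ubqln2, a ubiquitin shuttle, at 8.11 and 7.30.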

How the data were processed

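Total RNA with ribosomal RNA reduced was sequenced from 2 gastrocnemius samples after a directional library preparation with ERCC RNAs added, per the labels. The authors deposited gene and transcript tables in RSEM's layout (first quantification) and transcript tables in kallisto's layout (second quantification, summed here to genes), for genome mm10 and GENCODE M21. Which programs made them, and how reads of CAST/EiJ alleles were treated, is not given in the sources used here. Expected counts, as deposited, are estimates of unnormalized reads, with reads of ambiguous origin divided among the genes they match. TPM values, as deposited, are such counts per effective length, scaled to a fixed total per library. Percent values, as deposited, give a transcript's part of its gene. Posterior SDs and credibility bounds of the first quantification are the authors' own, deposited with it.

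Expected counts were rounded for edgeR 4.0.16 (R 4.3.3). TMM scaled the libraries, and CPM ratios on the log2 scale were taken with a prior count of 2 for genes with a mean count of at least 50. This step was tested on simulated data with planted changes past 2-fold, which does not test ratios as small as those of the members. The 42714567 and 43421652 counts set a floor of 3 counts, or 0.0702 and 0.0691 CPM, which covers counting error only. Nothing in the labels says more of how the animals were chosen, and with 1 group the SD of 2 animals is the only measure of spread between animals. Alternatives were the posterior mean TPM, the second quantification, TPM rescaled over nuclear protein-coding genes, DESeq2 1.42.0 size factors, spike-in scaling, another prior count, other minimums and each animal alone; counting only protein-coding transcripts and a minimum of 500 counts were chosen after seeing the data. The members and lists were chosen with earlier results of these data known. All members are named; of each list, the highest and lowest, with Nfe2l1, Pomp and Adrm1, and the 2 members with the largest log2 ratio in each direction. Tap1, Irf1, Sem1, Tapbp, Erap1, the Ptprc, Lyz2 and Csf1r markers, AW209491, the pseudogenes and single transcripts were named after their values were seen. The values of 1 list are not reported here. Paaf1 was listed but not analysed here, and Shfm1 is an older name of Sem1.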

Additional observations from a re-analysis of the deposited data

Results flagged for a closer look

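Among the 4 pseudogenes left out of the members, Psmb7-ps2 had 3.32 expected counts in replicate 1 and 0 in replicate 2, a signal outside the main measurement and just above the 3 counts that a count of 0 allows. Psmb7-201 shares 4.07% of its stretches of 31 bases with other genes, Psmb7-ps2 being the closest, and Psmb7 itself had 4421 counts in that library.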

How the results depend on the processing

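No paired analysis was possible because the 2 animals form 1 group. The core median of 67.0 TPM was 58.3 by the second quantification, 60.6 with protein-coding transcripts only and 146 when TPM was rescaled over nuclear protein-coding genes, which raises all coding genes by construction. The constitutive to immune ratio of 32.5 was 29.4 with posterior mean TPM, 27.7 by the second quantification and 133 with protein-coding transcripts only. The highest core gene was 10.6 times the lowest by the second quantification, and the lid to core ratio was 0.853 with protein-coding transcripts only. The members' median log2 ratio was -0.066 with spike-in scaling, where 24 of 40 members changed sign. Without a count minimum 2 members passed 2-fold (Psma8 and Psme2b, under 4 counts in either animal), beside 11.7% of all genes. With a single animal the core median ran from 62.5 to 71.4 TPM, the constitutive to immune ratio from 30.98 to 34.02, the highest over lowest core gene from 6.51 to 6.65, the lid to core ratio from 0.770 to 0.822, and the members whose highest transcript was a protein-coding one from 41 to 42, against 38 for the same one in both animals. Members detected were 41 with either animal alone, 40 to 43 over the quantifications, and 35 at 10 TPM. Leaving out an animal gives no log2 ratio. Depth limits Psmb8, Psmb9, Psma8, Psmb11, Psme2b and Psmc3ip, all with a mean of under 50 counts.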
